A study of Mus musculus with 8 samples.

Results

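Protein kinase C (PKC) is a family of serine/threonine kinases that relay lipid and calcium signals from cell surface receptors. The RNA levels of 8 of its genes, Prkca, Prkcb, Prkcd, Prkce, Prkch, Prkci, Prkcq and Prkcz, were examined in mouse undifferentiated pleomorphic sarcoma (UPS), a high-grade soft tissue sarcoma. They were taken by gene symbol from a table of 26667 genes, and all 8 were present. The family and its members were put forward after results of these tumours were known, so the isoform values, with the fold changes and adjusted p-values that belong to them, are given as a description and are no independent test.

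KP mice carried Trp53 fl/fl and a further engineered allele that is not reported here, and KPH2 mice carried the same alleles with Epas1 fl/fl, which removes the oxygen-regulated transcription factor HIF-2α where Cre is active. Both groups were on a mixed 129/C57BL/6 background, of either sex, 8 weeks old or more, and received adenovirus expressing Cre in the hind limb muscle, so that only infected cells and their descendants were recombined and the host stroma kept intact alleles. The endpoint was 7 weeks from Cre delivery or the size limit set for tumours. RNA from paraffin sections was sequenced from 4 KP tumours (KP 5 to KP 8) and 4 KPH2 tumours (KPH2 1 to KPH2 4), 1 library each, and KPH2 1 is shown apart because the study left 1 knockout tumour out as a technical outlier and the smaller normalized table lacks it. Library totals ran from 6463221 to 13155510 counts, and levels are given as CPM, the read count of a gene scaled to a common library size of 1000000 after TMM (trimmed mean of M-values) normalization. Epas1 had 59.1 to 86.7 CPM in KP, 37.7 to 53.3 CPM in KPH2 2 to KPH2 4 and 32.6 CPM in KPH2 1, with every KPH2 tumour below every KP tumour (log2 fold change −0.81, standard error (SE) 0.19, adjusted p = 0.0742, edgeR). Counts over the whole gene do not separate the floxed exons from the rest, and the sections also hold host cells. Mesenchymal marker genes (Vim, Col1a1 and 6 others) were abundant in every section, summing to 17759 CPM or more, although Pdgfra was lower in KPH2 2 to KPH2 4 (log2 fold change −2.02, SE 0.27, adjusted p = 0.0183, edgeR).

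PKC isoforms are grouped by what switches them on. Phospholipase C splits a membrane lipid to give diacylglycerol and a calcium-releasing messenger. Classical isoforms (among them Prkca and Prkcb) need both diacylglycerol and calcium, calcium-independent isoforms (Prkcd, Prkce, Prkch and Prkcq) need diacylglycerol alone, and atypical isoforms (Prkci and Prkcz) respond to neither and work through protein partners at cell junctions and in cell polarity. Prkcq is known as a major isoform of skeletal muscle and T cells, and Prkcb is known from B cells, myeloid cells and brain.

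The promoters of the 2 classical members are shown because their RNA differed in opposite directions between the groups. Each is 300 bases of GRCm38.p6 from RefSeq, read 5′ to 3′ on the gene's strand, with 250 bases before an annotated start of transcription and 50 after it. Capitals mark ACGTG and GCGTG on either strand, the core letters of the element that HIF proteins bind. The Prkcb window is chr7:122288875-122289174 on the plus strand, and the Prkca window is chr11:108343839-108344138 on the minus strand.
Prkcb: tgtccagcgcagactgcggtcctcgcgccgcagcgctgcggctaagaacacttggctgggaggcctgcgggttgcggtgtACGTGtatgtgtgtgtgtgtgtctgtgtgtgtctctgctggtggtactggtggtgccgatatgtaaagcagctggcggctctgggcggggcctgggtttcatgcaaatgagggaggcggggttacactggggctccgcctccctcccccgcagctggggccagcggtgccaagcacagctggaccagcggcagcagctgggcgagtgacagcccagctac
Prkca: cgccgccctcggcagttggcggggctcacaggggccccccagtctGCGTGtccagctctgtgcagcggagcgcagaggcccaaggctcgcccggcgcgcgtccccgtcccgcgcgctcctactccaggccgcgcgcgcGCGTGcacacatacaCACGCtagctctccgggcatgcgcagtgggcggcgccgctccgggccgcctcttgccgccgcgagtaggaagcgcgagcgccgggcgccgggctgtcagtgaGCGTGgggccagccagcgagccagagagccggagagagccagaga
The Prkcb window held 1 match, an ACGTG that begins 170 bases before that start. The Prkca window held 4, of which 3 lie before the start and 1 after it. Where CACGTG occurs it counts on both strands, as overlapping matches. Windows were found for 6 of the 8 genes, all but Prkce and Prkch, with 9 windows in all since some genes have several starts, and 8 of the 9 held at least 1 match, where 43.8% of all 32851 promoter windows do. The letters describe the sequence only, and no binding was measured.

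Prkcb was the isoform with the largest difference. In the KP tumours it had 99.4, 85.4, 138 and 103 CPM (KP 5 to KP 8), and in KPH2 2, 3 and 4 it had 443, 221 and 430 CPM. The lowest of these KPH2 tumours stood above the highest KP tumour, with KPH2 3 well below KPH2 2 and KPH2 4. KPH2 1, at 43.1 CPM, was below every other tumour. Prkcb averaged 106 ± 22.4 CPM across KP tumours (SD, n = 4) and 365 ± 124 CPM across KPH2 2 to KPH2 4 (SD, n = 3), a ratio of 3.43. In the fit over all genes the log2 fold change was 1.78 (SE 0.27, adjusted p = 0.0232, edgeR's quasi-likelihood test). With KPH2 1 counted among the KPH2 tumours it was 1.42 (SE 0.58, adjusted p = 0.311, edgeR). Left out one at a time, KP 6, KP 8, KPH2 2 and KPH2 4 each took the adjusted p above 0.05, up to 0.0832 in edgeR, while the log2 fold change stayed between 1.61 and 2.04. In bulk tissue, a different number of cells of a type (more or fewer) and a different amount of RNA per cell (more or less) cannot be told apart.

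Prkca, the widely expressed classical isoform, went the other way. It had 170, 107, 119 and 82.6 CPM in KP 5 to KP 8 and 60.5, 67.2 and 63.4 CPM in KPH2 2 to KPH2 4. Every one of these KPH2 tumours was below every KP tumour, and the KPH2 values lay within a narrow span whereas the KP values did not. KPH2 1, at 158 CPM, stood with the upper KP tumours. Prkca averaged 120 ± 36.7 CPM (SD, n = 4) against 63.7 ± 3.38 CPM (SD, n = 3), so that the KP mean was 1.88 times the KPH2 mean. Its log2 fold change was −0.91 (SE 0.24, adjusted p = 0.0926, edgeR), which missed the threshold, and DESeq2 on the same tumours gave −0.90 (adjusted p = 0.0143). With all 8 tumours it was −0.45 (SE 0.35, adjusted p = 0.594, edgeR).

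The classical pair therefore stood in a different proportion in each group. Per kilobase of exon, Prkcb had 1.42 to 3.003 times the level of Prkca in KP tumours and 7.97 to 17.7 times in KPH2 2 to KPH2 4, and 0.659 times in KPH2 1.

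**Figure D1:**
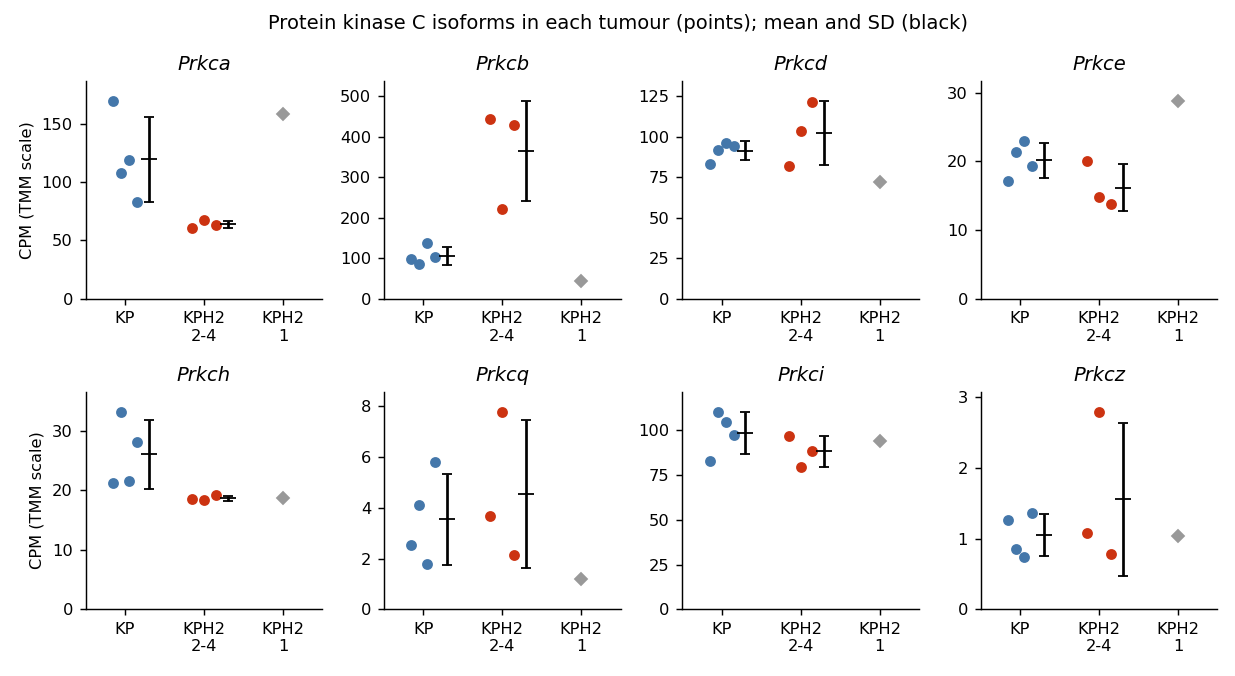
CPM on the TMM scale (y axis, from 0) of each isoform in the 4 KP tumours (blue), KPH2 2 to KPH2 4 (red) and KPH2 1 (grey diamond), with the mean and SD of each group in black. Prkcb in KPH2 2 to KPH2 4 sits between 221 and 443 CPM, above all KP tumours, and Prkca and Prkch in the same tumours sit below all KP tumours.

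Among the calcium-independent isoforms, Prkcd was the most abundant. This gene, whose product acts in apoptosis and in immune cells, had 83.4, 91.8, 96.2 and 94.5 CPM in KP 5 to KP 8, 82.2, 103 and 122 CPM in KPH2 2 to KPH2 4 and 71.9 CPM in KPH2 1. The groups overlapped, and the log2 fold change was 0.16 (SE 0.16, adjusted p = 0.657, edgeR). Prkch, known from epithelium and blood vessels, had 21.1, 33.2, 21.6 and 28.02 CPM in KP 5 to KP 8 and 18.5, 18.3 and 19.1 CPM in KPH2 2 to KPH2 4. KPH2 1 had 18.8 CPM, so Prkch was the only one of the 8 members for which all 4 KPH2 tumours were below all KP tumours. The margin was small beside the KP spread (log2 fold change −0.48, SE 0.20, adjusted p = 0.258 over 7 tumours, and −0.48 with adjusted p = 0.275 over 8, edgeR). Of 9 endothelial markers, Pecam1, Kdr and Esam had the same trait, lower in all 4 KPH2 tumours than in any KP tumour, where 4.4% of all tested genes were. The summed endothelial level overlapped between the groups, at 313 to 610 CPM in KP, 326 to 328 CPM in KPH2 2 to KPH2 4 and 233 CPM in KPH2 1. Log2 fold changes were negative for 7 of the 9, with 0 past the threshold in edgeR. At an unadjusted p under 0.05 there were 4, where 17.8% of all tested genes were. DESeq2 called 3, where it called 7.2% of its genes, and limma called 0. The part of vessel content in the Prkch values was not tested.

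Prkce had 17.1, 21.3, 22.9 and 19.3 CPM in KP 5 to KP 8, 20.0, 14.8 and 13.7 CPM in KPH2 2 to KPH2 4, and 28.8 CPM in KPH2 1. This isoform, which acts in the heart and in cell growth, overlapped between the groups (log2 fold change −0.32, SE 0.20, adjusted p = 0.463, edgeR). KPH2 1 was above every KP tumour. Prkcq had 2.52, 4.10, 1.78 and 5.80 CPM in KP 5 to KP 8, 3.68, 7.79 and 2.14 CPM in KPH2 2 to KPH2 4, and 1.20 CPM in KPH2 1. It was counted at only 12 to 78 reads per library, its groups overlapped throughout, and its log2 fold change of 0.34 (SE 0.53, adjusted p = 0.794, edgeR) became −0.29 without KPH2 3.

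Of the atypical isoforms, Prkci was by far the more abundant. This polarity kinase had 82.6, 110, 104 and 97.3 CPM in KP 5 to KP 8, 96.8, 79.6 and 88.2 CPM in KPH2 2 to KPH2 4 and 93.8 CPM in KPH2 1, all within overlapping ranges (log2 fold change −0.16, SE 0.15, adjusted p = 0.635, edgeR). Its coefficient of variation was 11.9% within KP and 9.74% within KPH2 2 to KPH2 4, against 21.1% and 34.1% for Prkcb. Prkcz was the scarcest member at 5 to 28 reads per library. It had 1.26, 0.847, 0.740 and 1.36 CPM in KP 5 to KP 8, 1.08, 2.80 and 0.787 CPM in KPH2 2 to KPH2 4 and 1.04 CPM in KPH2 1. Its log2 fold change of 0.52 (SE 0.51, adjusted p = 0.647, edgeR) rested on KPH2 3 and was −0.20 without it.

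In counts, 1 of the 8 members (Prkcb) had an adjusted p under 0.05, where 1.96% of the 14867 tested genes did in either direction, 1.24% with higher and 0.72% with lower values in KPH2. At an unadjusted p under 0.05 there were 3 members, where 17.8% of tested genes fell under it. DESeq2 called 2 members, Prkcb and Prkca, where it called 7.2% of its genes, and limma called Prkcb, where it called 2.17%. The groups did not overlap for 3 members, Prkcb higher and Prkca and Prkch lower, where 16.9% of tested genes did not overlap, 8.73% with higher and 8.15% with lower values in KPH2. Fold changes were positive for 4 members and negative for 4, with a median log2 fold change of 0.00 beside −0.02 over all tested genes. Over all 8 tumours, 0 members were called by edgeR (2, Prkcb and Prkch, at an unadjusted p under 0.05, where 14.7% of tested genes were), where 0.00675% of tested genes were called, and 1 member, Prkch, did not overlap, where 8.16% of genes did not and 4.4% did not with lower values in KPH2. Nothing about the family as a whole is read from these counts.

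**Figure D2:**
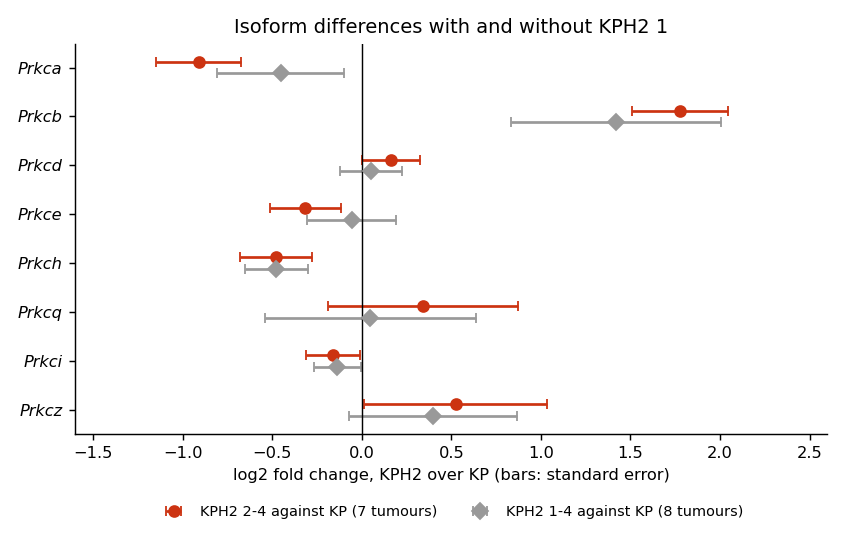
Log2 fold change of KPH2 over KP tumours (x axis) for each isoform, with the standard error as bars, for 7 tumours (red circles) and for all 8 (grey diamonds). Prkcb stands at 1.78 and Prkca at −0.91 over 7 tumours, and both lie nearer 0, at 1.42 and −0.45, when KPH2 1 is included.

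Levels were compared between isoforms as CPM per kilobase of exon (RPKM, on the TMM scale). In KP tumours Prkcb (29.8 ± 6.28 RPKM, SD, n = 4) and Prkcd (28.3 ± 1.76 RPKM) were highest and their ranges overlapped. Prkci (20.9 ± 2.498 RPKM) and Prkca (13.9 ± 4.25 RPKM) followed, again with overlapping ranges. Prkch, Prkce, Prkcq and Prkcz came next in that order, from 7.33 RPKM down to 0.217 RPKM, with no overlap between neighbours. In KPH2 2 to KPH2 4 the order was the same, but Prkcb, at 102 ± 34.9 RPKM (SD, n = 3), stood apart from Prkcd at 31.7 ± 6.12 RPKM, and no neighbours overlapped.

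Summed over the 8 isoforms, the level was 101, 102, 115 and 101 RPKM in KP 5 to KP 8, 187, 129 and 193 RPKM in KPH2 2 to KPH2 4, and 83.0 RPKM in KPH2 1. Each of KPH2 2 to KPH2 4 was above each KP tumour, and KPH2 1 was below all of them. The ratio of the means was 1.62 over these 7 tumours and 1.41 with KPH2 1 included. Without Prkcb the sum was 74.8 ± 2.84 RPKM (SD, n = 4) in KP, 67.2 ± 4.71 RPKM (SD, n = 3) in KPH2 2 to KPH2 4 and 71.0 RPKM in KPH2 1. Those 3 KPH2 tumours were then each below the lowest KP tumour (62.7, 66.9 and 72.1 against 72.4 RPKM). Prkcb made up 28.3% ± 4.22 of the sum in KP, 59.0% ± 9.67 in KPH2 2 to KPH2 4 and 14.5% in KPH2 1. Classical members together made up 41.6% ± 5.73 in KP and 63.6% ± 8.39 in KPH2 2 to KPH2 4, and atypical members 20.2% ± 2.23 and 11.5% ± 1.90. In KPH2 1 the classical share was 36.6% and the atypical share 24.2%, below and above the KP means. The level of Prkci itself was 20.9 RPKM in KP and 18.7 RPKM in KPH2 2 to KPH2 4, and these shares are of a sum that includes Prkcb. Prkcq and Prkcz were at most 1.69% and 0.447% of the sum in any tumour.

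**Figure D3:**
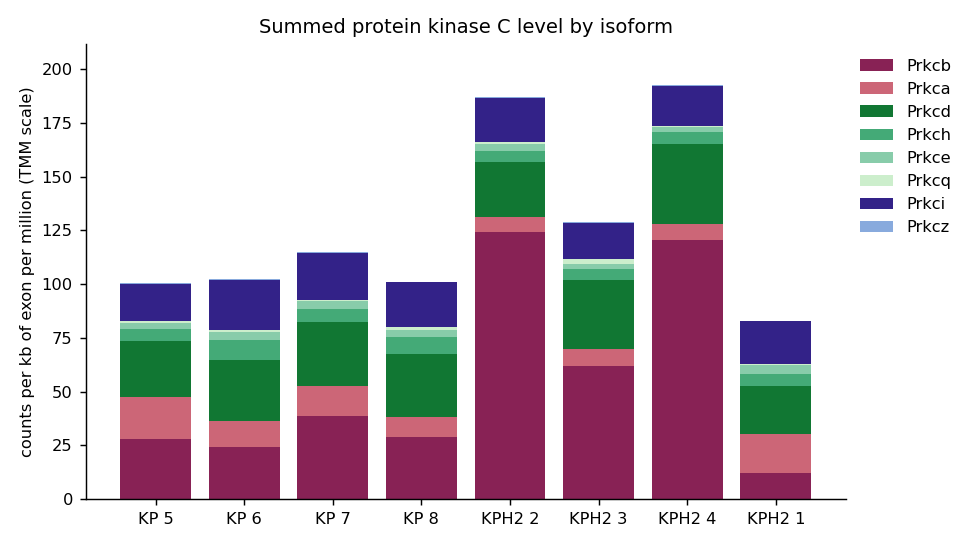
Summed PKC level in each tumour (y axis, RPKM on the TMM scale), stacked by isoform. The Prkcb segment (dark red, at the base) reaches 124 and 120 in KPH2 2 and KPH2 4 and 62.0 in KPH2 3, between 23.9 and 38.7 in KP tumours and 12.1 in KPH2 1, while the other 7 isoforms together hold 62.7 to 78.3 in every tumour.

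Markers of other cell types varied between the same sections. Skeletal muscle fibre genes summed to 1739 to 3157 CPM in KP, and to 11722, 18326 and 4061 CPM in KPH2 2, 3 and 4, with KPH2 1 lowest at 1427 CPM. All 15 markers had positive log2 fold changes over 7 tumours, with a median of 2.12. In edgeR 15 had an unadjusted p under 0.05, where 17.8% of all tested genes did. Past the threshold were 2 in edgeR (Eno3 and Neb), 11 in DESeq2 and 1 in limma, where 1.96%, 7.2% and 2.17% of all tested genes were. In 5 of the 15 the groups did not overlap, where 8.73% of all tested genes did not with higher values in KPH2, and for the other 10 KPH2 4 lay within the KP range while KPH2 2 and KPH2 3 lay above it. Both Prkcb and the muscle sum were above every KP tumour in KPH2 2, 3 and 4 and lowest of all in KPH2 1. Among those 3 tumours, Prkcb was highest in KPH2 2 and lowest in KPH2 3, and the muscle sum was highest in KPH2 3 and lowest in KPH2 4. Fitted with the muscle score beside the genotype, Prkcb had a log2 fold change of 2.20 (SE 0.40, adjusted p = 0.158, edgeR), which did not pass the threshold. In that fit 3 genes were called in all. Muscle markers and genotype went together in these 7 tumours, so the fit cannot separate them. The part of muscle content in the Prkcb values was not tested. Prkcq and Prkcz had their highest values in KPH2 3, the section with the most muscle RNA, and with the same score their log2 fold changes were −0.96 and −0.93.

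B cell markers were low in every tumour, and 2 of the 6, Cd22 and Cd79b, passed the low-count filter. Cd22 had the higher level of these, at 2.79 to 8.10 CPM. The 6 markers summed to 4.00 to 11.8 CPM in KP, 5.93 to 12.3 CPM in KPH2 2 to KPH2 4 and 4.31 CPM in KPH2 1. Pax5 was at 0 in 4 of the 8 libraries (KP 6, KP 7, KPH2 1 and KPH2 3). T cell markers summed to 15.5 to 42.5 CPM in KP and 18.0 to 32.9 CPM in KPH2 2 to KPH2 4, with negative log2 fold changes for 9 of 10. Macrophage markers were abundant, with sums of 2101 to 3538 CPM in KP, 1656 to 2381 CPM in KPH2 2 to KPH2 4 and 2043 CPM in KPH2 1, and all 10 had negative log2 fold changes. In edgeR 0 of these T cell and macrophage markers passed the threshold, and 0 did in DESeq2 or limma. At an unadjusted p under 0.05 there were 0 and 4 in edgeR, where 17.8% of all tested genes were. Over all 8 tumours there were 0 and 6, where 14.7% were. Schwann cell and nerve markers summed to 150 to 522 CPM in KP and 221 to 417 CPM in KPH2 2 to KPH2 4.

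**Figure D4:**
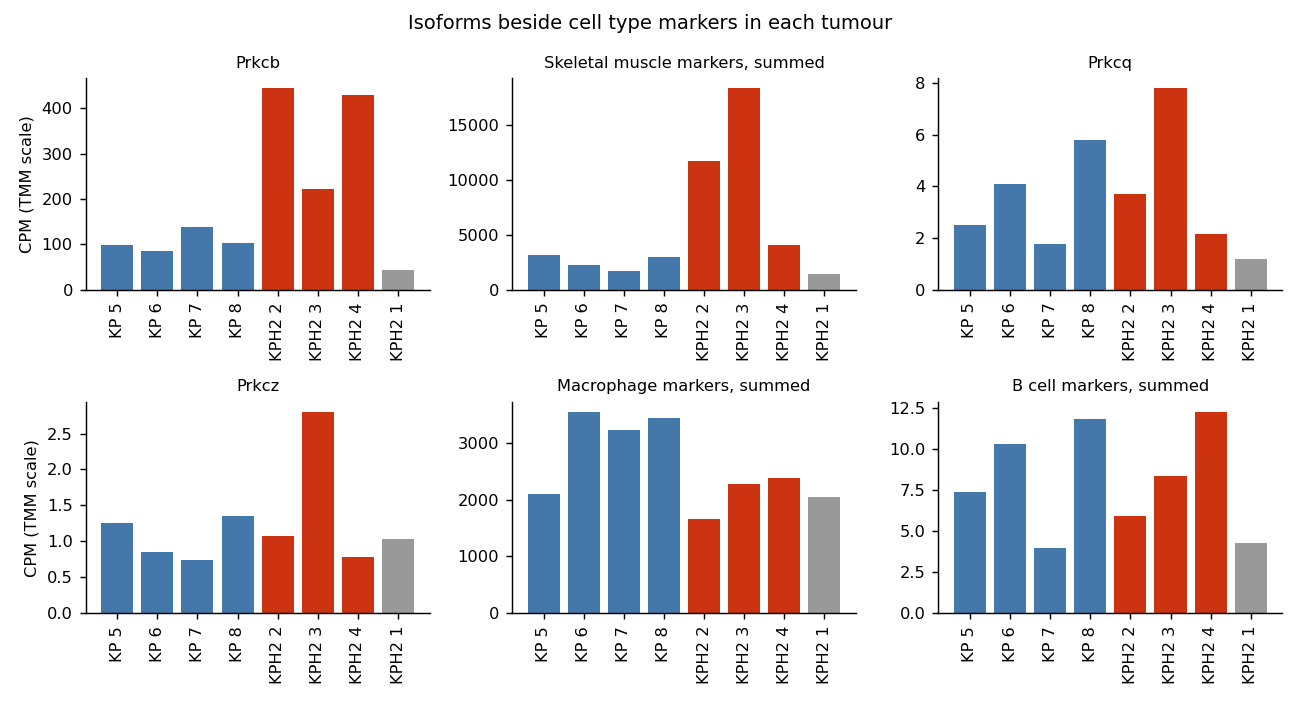
CPM in each tumour (y axes from 0, one scale per panel) of Prkcb, Prkcq and Prkcz beside the summed CPM of skeletal muscle, macrophage and B cell markers, with KP in blue, KPH2 2 to KPH2 4 in red and KPH2 1 in grey. Muscle markers peak at 18326 CPM in KPH2 3, as do Prkcq and Prkcz, whereas Prkcb peaks in KPH2 2 and KPH2 4.

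The genes that make, carry and read the PKC signal were followed in 8 lists of 80 genes, of which 77 were tested. Of these, 3 rose in KPH2 2 to KPH2 4 (Plcb3, Pard6b and Add2) and 0 fell, where 1.96% of all tested genes were called and 1.24% were called higher. Log2 fold changes were negative for 42 of the 77. In edgeR over all 8 tumours 0 of them were called, with 13 at an unadjusted p under 0.05, where 14.7% of all tested genes were. Over 7 tumours DESeq2 called 6 and limma 3, where they called 7.2% and 2.17% of all genes.

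Upstream, phospholipase C isoforms make diacylglycerol. Of 11 tested, Plcb3, which is driven by G protein-coupled receptors, had 59.5 to 76.6 CPM in KP, 103 to 117 CPM in KPH2 2 to KPH2 4 and 60.9 CPM in KPH2 1 (log2 fold change 0.69, SE 0.14, adjusted p = 0.0499, edgeR). Its call was marginal and held in 1 of the 7 fits that left out a tumour. Plcb4 and Plch1 had log2 fold changes of 0.55 and 1.21 (adjusted p = 0.207 and 0.193, edgeR). Plcb2, named after its values were seen as the remaining one of 4 at an unadjusted p under 0.05 (17.8% of all tested genes), had one of −0.74 (adjusted p = 0.22, edgeR). Over the list 6 of 11 were negative, with a median of −0.06. Diacylglycerol kinases end the signal by phosphorylating diacylglycerol. Of 9 tested, 0 passed in edgeR, with 3 at an unadjusted p under 0.05 (17.8% of all tested genes), 1 called by DESeq2 (7.2%) and 0 by limma. The same 3 had no overlap between the groups (16.9% of all tested genes). Dgki and Dgkh had lower values in each of KPH2 2 to KPH2 4 than in any KP tumour (log2 fold changes −2.20 and −0.63, adjusted p = 0.0794 and 0.15, edgeR). Dgkz had higher values there (0.36, adjusted p = 0.273, edgeR). KPH2 1 did not share these differences, at 3.27 CPM of Dgki, 40.0 CPM of Dgkh and 58.3 CPM of Dgkz. Dgki was scarce, at 0.98 to 3.41 CPM in KP and 0.36 to 0.67 CPM in KPH2 2 to KPH2 4. The median over the list was −0.24.

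Other proteins bind diacylglycerol through the same kind of domain as PKC. Of 13 tested genes for such receptors, 0 passed in edgeR (3 at an unadjusted p under 0.05, where 17.8% of all tested genes were) and 0 in DESeq2 or limma, 9 had negative log2 fold changes, and the median was −0.25. Rasgrp4, Chn1 and Prkd1 had the smallest p, with log2 fold changes of −0.997, −0.97 and −0.95 and adjusted p = 0.144, 0.173 and 0.227 (edgeR). A further list held PKC-related kinases with the priming kinases that load phosphate onto PKC and the PHLPP phosphatases that remove it. Of these 8, 0 passed in edgeR, DESeq2 or limma and 0 had an unadjusted p under 0.05. Phlpp1 had the smallest p there, at 82.8 ± 25.2 CPM across KP (SD, n = 4) and 119 ± 8.73 CPM across KPH2 2 to KPH2 4 (SD, n = 3) (log2 fold change 0.52, adjusted p = 0.309, edgeR). The median over the list was −0.01.

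Anchoring proteins hold PKC at its place of action. Of 10 tested, 0 passed in edgeR, with 3 at an unadjusted p under 0.05 (17.8% of all tested genes), and DESeq2 called 2 (7.2%) and limma 0. Akap12, a scaffold for PKC and protein kinase A, had 136, 134, 124 and 48.1 CPM in KP 5 to KP 8, 43.0, 26.7 and 30.4 CPM in KPH2 2 to KPH2 4 and 28.9 CPM in KPH2 1, lower in all 4 KPH2 tumours than in any KP tumour, where 4.4% of all tested genes were (log2 fold change −1.73, SE 0.38, adjusted p = 0.0628, edgeR). Ldb3, a muscle Z-disc protein that binds PKC, had 5.48 to 12.3 CPM in KP and 51.2, 61.0 and 14.0 CPM in KPH2 2 to KPH2 4, in the order of the muscle markers (log2 fold change 2.28, adjusted p = 0.0594, edgeR). Pdlim5, another anchor of this family, had a log2 fold change of −0.53 (adjusted p = 0.182, edgeR).

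Partners of the atypical isoforms include the PAR polarity proteins. Of 11 tested, 8 had positive log2 fold changes, 4 had no overlap between the groups, all higher in KPH2, where 8.73% of all tested genes did so, and 1 was called, where 1.24% were called higher. Pard6b, an adaptor that joins atypical PKC to CDC42, rose from a very low level, 0.226 to 0.445 CPM in KP, to 1.58 to 2.25 CPM in KPH2 2 to KPH2 4, with 1.12 CPM in KPH2 1 (log2 fold change 2.59, SE 0.41, adjusted p = 0.0252, edgeR). Its call held in 1 of the 7 fits that left out a tumour, with adjusted p up to 0.103 in edgeR. Pard3 and Llgl1 had log2 fold changes of 0.74 and 0.36 (adjusted p = 0.126 and 0.276, edgeR). The median over this list was 0.36, the highest of the 8 lists, whereas Prkci and Prkcz themselves had overlapping groups.

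The CARD-BCL10-MALT1 module links PKC to NF-κB in immune cells. Of its 6 genes, 5 had negative log2 fold changes, 0 passed in edgeR, DESeq2 or limma and 0 had an unadjusted p under 0.05. Card9, known from myeloid cells, stood at 9.64 ± 3.80 CPM across KP (SD, n = 4) and 5.50 ± 1.90 CPM across KPH2 2 to KPH2 4 (SD, n = 3) (log2 fold change −0.80, adjusted p = 0.298, edgeR), and Malt1 and Card14 had log2 fold changes of −0.31 and 0.47 (adjusted p = 0.518 and 0.674, edgeR). Among 9 tested substrates, Add2, an adducin that caps actin at the membrane skeleton, had 3.46 to 7.63 CPM in KP, 30.2, 39.6 and 86.7 CPM in KPH2 2 to KPH2 4 and 2.79 CPM in KPH2 1 (log2 fold change 3.41, SE 0.44, adjusted p = 0.0181, edgeR). Its highest value was in KPH2 4, not in KPH2 3. Nrgn and Gap43, both neuronal substrates, had log2 fold changes of −1.54 and −1.23 (adjusted p = 0.106 and 0.224, edgeR). Over the substrates 6 of 9 were negative, with a median of −0.21 and 5 at an unadjusted p under 0.05 (17.8% of all tested genes).

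**Figure D5:**
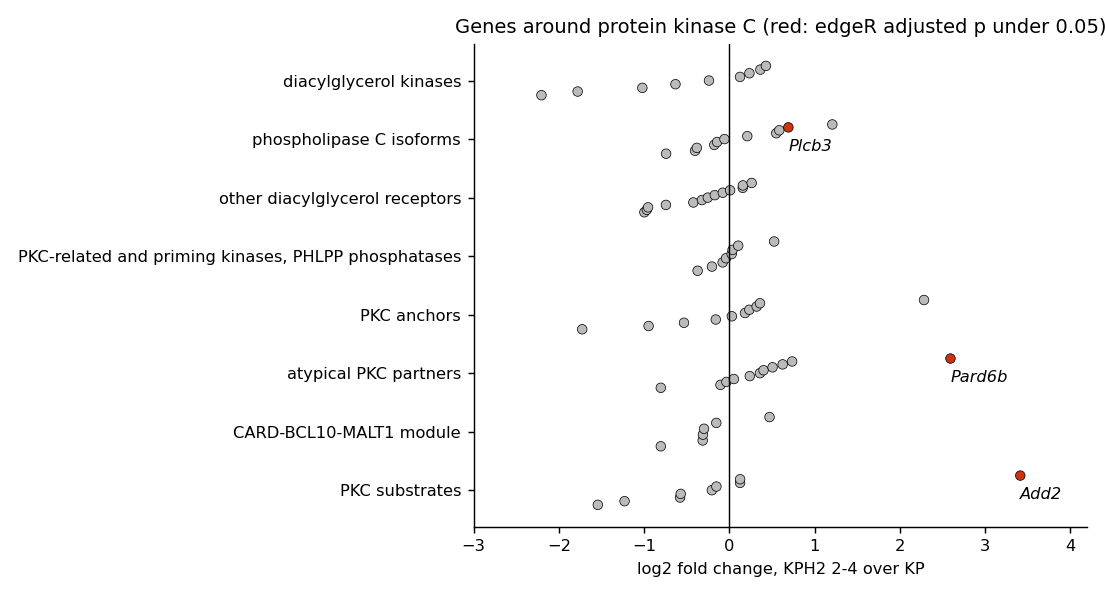
Log2 fold change of KPH2 2 to KPH2 4 over KP (x axis) for each tested gene of the 8 lists around PKC, 1 point per gene. The genes called by edgeR, in red, are Plcb3 at 0.69, Pard6b at 2.59 and Add2 at 3.41, and the grey points are genes that edgeR did not call.

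For each member, the tested genes with the most similar pattern were found by the root mean square difference in log2 CPM, centred over the 8 tumours. The nearest to Prkcb were Dmpk, a kinase gene active in muscle, Wipf3, at 1.98 CPM or less in every tumour, and Slc9a3r1, each with a difference of 0.37 log2 units. Dmpk had 28.5 CPM in KP, 83.9 CPM in KPH2 2 to KPH2 4 and 12.2 CPM in KPH2 1, but unlike Prkcb it stood at nearly the same level in KPH2 2, 3 and 4 (85.6, 83.0 and 83.1 CPM). The nearest to Prkca were Crim1, Itpr1 and Camk1d, at 0.14, 0.17 and 0.17 log2 units. Itpr1 encodes the channel that releases stored calcium after phospholipase C acts, and Camk1d a calcium-dependent kinase. Their mean CPM was 219 and 142 in KP, 118 and 78.8 in KPH2 2 to KPH2 4, and 247 and 174 in KPH2 1. For the other members the nearest genes were D830031N03Rik (Prkcd), Srfbp1 (Prkce), Ugp2 (Prkch), Ggnbp2 (Prkci), Il12rb1 (Prkcq) and Dusp28 (Prkcz), and over all 8 members the difference of the nearest gene ran from 0.05 to 0.37.

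The isoform genes lie on 8 chromosomes, and the positions of 2 are set beside HIF genes. In RefSeq on GRCm38.p6, Prkce spans chromosome 17 from 86167785 to 86657919, and the next tested gene is Epas1 itself, 95.9 kb further on. Prkch spans chromosome 12 from 73584796 to 73778185, with Hif1a as the next tested gene 123 kb further on (log2 fold change −0.27, adjusted p = 0.705, edgeR). Prkce is thus a neighbour of the engineered locus. Prkcb spans chromosome 7 from 122289104 to 122634402. Its 3 nearest tested genes on each side had log2 fold changes from −1.14 to 0.01. Of these 6, 0 were called, where 1.96% of all tested genes were. Separate groups were found for 0 of them, where 16.9% of all tested genes had them, and nothing is read from so few genes. Of all 48 flanking genes of the 8 members, 2 were called, Itih2 and Sfmbt2, which are among the nearest tested genes on one side of Prkcq but lie 1041221 and 576651 bases from it. Over all tested genes 1.96% were called, so nothing is read from that count. Several members overlap annotated long non-coding RNAs, among them 2010106C02Rik within Prkce, and Prkch overlaps the protein-coding locus LOC115488016 at its lower coordinate. The strand setting used in counting is not given in the sources used here, so reads there could be shared.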

How the data were processed

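RNA was extracted from paraffin-embedded sections of 8 tumours and sequenced from stranded, ribosomal RNA-depleted libraries. The authors aligned reads to GRCm38 with STAR 2.4 and deposited raw counts of unique alignments per RefSeq gene from HTSeq 0.6.1. They also deposited log2 values from the regularized log transformation of DESeq2 1.6, for 7 and for 8 tumours, of which the first served as an alternative input. Groups came from the sample titles.

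The counts were fitted by edgeR 4.0.16 (R 4.3.3) after TMM scaling, with edgeR's low-count filter (minimum count 10, total 15), robust quasi-likelihood tests and Benjamini-Hochberg adjustment over 14867 genes, at a threshold of 0.05, for KP 5 to KP 8 against KPH2 2 to KPH2 4. Standard errors were derived from the F statistic. CPM used TMM factors over all 8 tumours, and log2 CPM a prior count of 2. Exon lengths were the union over protein-coding transcripts of GENCODE vM21 basic. Promoters and positions came from RefSeq GRCm38.p6, which matched 14436 tested genes.

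The members and the gene lists were chosen with earlier results of these data known. Named genes were the 8 members, Epas1, up to 3 genes per list with the smallest p, and the 3 most similar genes per member, and markers or flanking genes named beyond these were chosen with their values in view. Some genes and alleles are not reported here. The closest libraries, KP 6 and KP 8, gave a chi-square per degree of freedom of 29.9, so they were not 1 library sequenced again. That value cannot tell sections of 1 tumour from separate tumours. The titles give each library its own number and the study counts them as tumours, so each was counted once. The p-values measure the spread between these libraries. On simulated counts of this comparison (14867 genes), edgeR recovered 146 of 200 genes changed by 2 log2 units, with 8 false calls, and called 0 with none changed. These counts were drawn independently for each gene and tumour. They held no shift shared by many genes of a tumour, such as one in muscle content, so they do not give the false calls in the real tumours. The alternatives were other normalizations and filters, all 8 tumours, leaving out each tumour, the muscle score as covariate, edgeR without robust estimates, DESeq2 1.42.0 and limma 3.58.1 on the deposited log2 values, and for the summed level the longest transcript or total counts.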

Additional observations from a re-analysis of the deposited data

Results flagged for a closer look

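Within groups of 4 tumours, 3 of the 18 groups examined had a tumour far from the others by Dixon's criterion, where chance gives about 1 in 20. Prkca in KPH2 1 stood at 158 CPM, against 60.5 to 67.2 CPM in the other KPH2 tumours. Prkcz in KPH2 3 stood at 2.80 CPM, against 0.787 to 1.08 CPM in the others. The summed PKC level stood at 115 RPKM in KP 7, against 101 to 102 RPKM in the other KP tumours. In addition, KPH2 1, which was left out of the 7-tumour comparison, had 28.8 CPM of Prkce, above the KP range of 17.1 to 22.9 CPM.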

How the results depend on the processing

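The number of genes called was 292, and it became 1 over all 8 tumours, 3 with the muscle score as a covariate and 1175 in DESeq2. With each tumour left out in turn it ran from 55 (without KPH2 2) to 349 (without KP 5), and it was 130 without KP 6, 73 without KP 7, 130 without KP 8, 159 without KPH2 3 and 153 without KPH2 4. Prkcb was called in 10 of 16 alternatives, with log2 fold changes from 1.14 to 2.20, positive in all 16, and adjusted p from 4.4e-07 to 0.311. It was called in 3 of the 7 fits that left out a tumour. Prkca was negative in all 16 and called in DESeq2 only. Prkcd, Prkce and Prkch kept their direction in 16 of 16 and were called in 0. With the muscle score, Prkci, Prkcq and Prkcz changed direction to 0.065, −0.96 and −0.93, and without KPH2 3 Prkcq and Prkcz did so at −0.29 and −0.20, with no call in any of these. Over the fits that left out a tumour, Prkcq ran from −0.29 to 0.70 and Prkcz from −0.20 to 0.84. Prkcz could not be given in 3 alternatives and Prkcq in 1, where they did not pass the filter. Of the pathway genes, Add2 was called in 14 of 16 alternatives, Pard6b in 7 of 15 and Plcb3 in 5 of 16. For the summed level, the ratio of KPH2 to KP was 1.71 with the longest transcript and 1.54 with total counts, and 1.41 with KPH2 1 included, a choice made after seeing the data. The cause of these shifts was not tested. No paired analysis was possible because KP and KPH2 tumours share no replicate number. Depth limits Prkcq and Prkcz, with 12 to 78 and 5 to 28 reads per library.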
